A study of Mus musculus with 11 samples.

Results

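The genes of the proteasome were followed across leukemic and nonleukemic mouse B cell progenitors. Members were all symbols of the families Psma, Psmb, Psmc, Psmd, Psme, Psmf and Psmg, apart from pseudogenes and the interferon-induced catalytic genes Psmb8 and Psmb9, which left 48 of 24319 genes. Of these, 47 passed the filter on low values, and the thymus form Psmb11, at or near 0 FPKM in every library, did not. FPKM counts sequenced fragments relative to the length of the transcript and the size of the library. The name fits most but not all of the members. They include dedicated assembly factors (Psmg1 to Psmg4, Psmd5, Psmd9 and Psmd10), activators (Psme genes) and an inhibitor (Psmf1), and Psmc3ip, a meiotic recombination factor that matches by its symbol only.

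RNA was sequenced in 11 libraries of the C57BL/6J strain. B-ALL cells were leukemic cells from the lymph nodes of 3 Ebf1+/- Pax5+/- mice, numbered 686, 713 and 760, with 2 libraries each. The dHet proB cells (3 libraries) were Ebf1+/- Pax5+/- Rag2-/- c-Kit positive fetal liver cells, cultured for a short time with stem cell factor, Flt3 ligand and IL-7 over a layer of OP9 feeder cells. The wt proB cells (2 libraries) were the Fraction BC cells sorted from the bone marrow of control mice with Ebf1+/+ Pax5+/+ Rag2+/+. Ebf1 and Pax5 encode transcription factors of B cell identity, and Rag2 a subunit of the antigen receptor recombinase. Between B-ALL and dHet proB, leukemia, the labelled Rag2 genotype (none is given for B-ALL), tissue and culture change together, and between B-ALL and wt proB, leukemia, tissue and the Ebf1 and Pax5 genotype do. The dHet and wt proB cells differ in all of these genotypes, tissue and culture. None of these can be told apart. The labels do not say whether the libraries of a proB group came from separate animals or cultures, so the p-values may rest in part on technical spread. Likewise, in bulk RNA, more cells of a type and more RNA per cell cannot be told apart.

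The proteasome is the barrel-shaped protease that degrades ubiquitin-tagged proteins. Its core is a stack of alpha and beta rings with the active sites facing inward on beta subunits, and its cap consists of a base, which holds the ATPases that unfold the substrate, and a lid, which removes ubiquitin. Other caps can take the place of this one: PA28, made of the interferon-inducible products of Psme1 and Psme2, PA28 gamma (Psme3) in the nucleus, and PA200 (Psme4). In many cell types the transcription factor Nfe2l1 raises the subunit genes together when proteasome activity is short, through antioxidant response elements. Cells that make much protein, plasma cells among them, depend strongly on the proteasome.

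For 40 of the 48 members RefSeq (GRCm38.p6) gave a promoter window of 250 bases before and 50 after the transcript start. The letters TGACNNNGC, the core of the antioxidant response element, stood on either strand of the windows of 6 of the 40 (15.0%) and of 13.99% of the 27025 genes with a window. CCAAT was in 14 of the 40 (35.0%, against 41.1% of all genes). The core of the interferon-stimulated response element, GAAA followed by GAAA at a distance of 2 bases, was in 5 of the 40 (12.5%, against 3.99% of all genes): Psme1, Psmg4, Psmb3, Psmd4 and Psmd9. The stretches below are those of the members that passed a test further on and hold one of the longer motifs; capitals mark the match, which for Psmg4 is on the printed strand and for the others on the opposite one. A match describes the letters only, and no binding was measured.
Psme1, interferon core, chr14:55578493-55578522, plus strand: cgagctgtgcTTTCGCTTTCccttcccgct
Psmg4, interferon core, chr13:34162969-34162998, plus strand: gcgcgcatctGAAAGTGAAAgagcgttccg
Psmb3, interferon core, chr11:97703261-97703290, plus strand: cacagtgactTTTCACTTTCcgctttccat
Psmd12, antioxidant core, chr11:107479278-107479299, plus strand: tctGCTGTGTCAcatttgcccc
Psme4, antioxidant core, chr11:30771758-30771786, plus strand: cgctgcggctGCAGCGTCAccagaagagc

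The libraries held FPKM sums of 505261 to 638953 and 9850 to 10595 genes at an FPKM of 1 or more. The tables hold no counts and absolute depth is unknown; the steps between low values put the fragments behind 1 FPKM at 0.721 to 1.13 times those of wt proB library 1. The 10 B cell progenitor markers summed to 6211 to 8929 FPKM in B-ALL, 8298 to 10538 in dHet proB, and 7177 to 7600 in the wt proB libraries, with Igll1, Vpreb1 and Cd79a as the highest. Their median difference in B-ALL was -0.38 against wt proB, where Ebf1 was lower, and -0.45 against dHet proB, where Ebf1, Pax5 and Rag1 were lower. The 10 myeloid markers summed to 486 to 517 in wt proB, against 28.6 to 259 in B-ALL and 13.6 to 51.6 in dHet proB. The 5 plasmacytoid dendritic cell markers summed to 663 to 1028, 85.9 to 291 and 91.6 to 102 in the same order. Of these lists, 6 of 9 and 4 of 5 tested genes were lower in B-ALL than in wt proB, and 1 of each was higher than in dHet proB. The T cell, natural killer cell and red cell lists held genes that were higher in B-ALL than in dHet proB. Against wt proB the median differences of these lists were -0.26, -0.39 and 1.64, with 0 red cell genes passing. The 7 T cell markers summed to 8.60 to 422 in B-ALL, 2.84 to 12.7 in dHet proB and 71.1 to 78.5 in wt proB, and 5 of them were higher in B-ALL than in dHet proB. Against wt proB, Cd3d, Cd3e and Cd3g were higher and Cd4 lower. Those 3 Cd3 genes were at most 5.54 FPKM in any library, and Cd2 made up most of the highest sum, with 404 and 401 FPKM in mouse 713. The 4 natural killer cell markers summed to 38.3 to 332, 2.91 to 9.52 and 30.3 to 31.0, and 3 were higher in B-ALL than in dHet proB and 1, Ncr1, lower than in wt proB. Nkg7 was at 328 and 265 FPKM in mouse 760, while Ncr1 was at most 0.775 in B-ALL and listed at 0 in dHet proB. Red cell markers summed to 7.87 to 507, highest in mouse 713, 1.36 to 1.55 and 9.52 to 33.2, and 2 of 4 tested were higher in B-ALL than in dHet proB. The part of all these lists in the results was not tested. The 6 stromal markers summed to 0.129 to 1.496 in B-ALL, 0.008 to 1.16 in dHet proB and 0.118 to 0.146 in wt proB. Only dHet proB cells were grown over feeder cells, and feeder cell RNA was not measured in another way.

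Most proteasome genes had modestly higher levels in leukemic than in wt proB cells. Estimates were above 0 for 43 of 47 members, with a median log2 difference of 0.42, while the median of all 11110 genes tested was -0.02. With limma on log2(FPKM + 1), the 2 libraries of a mouse averaged, 8 members passed an adjusted p of 0.05 as higher (8.15% of all genes passed as higher) and 0 as lower (10.0% of all genes). At an unadjusted p of 0.05 these counts were 20 and 1. Here and below, the share of all genes at this unadjusted threshold was not counted, so such counts have no background beside them. For 29 of the 47 members every B-ALL library lay above both wt proB libraries, which held for 23.5% of all genes. The 8 members that rose were 4 lid subunits (Psmd3, Psmd6, Psmd12 and Psmd14), 3 assembly factors (Psmg1, Psmg3 and Psmg4) and the PA28 gene Psme2. These calls rest on few libraries, as do those of all genes. Without mouse 686, or without wt proB library 2, none of the members passed (3.39% and 0.562% of all genes as higher), and 1 passed without mouse 760 or without wt proB library 1 (5.79% and 1.13% of all genes). Without mouse 713 or library 1 of mouse 760, 5 passed (10.0% and 7.42%). Without dHet proB library 1, which enters through the shared spread, 3 passed (7.15%), and without dHet proB library 2, 15 (9.05%). The median stayed between 0.35 and 0.50 whichever mouse or library was left out.

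Against dHet proB cells the members again lay mostly higher in B-ALL, with 44 of 47 estimates above 0 and a median of 0.44 (0.04 over all genes). Here 12 members passed as higher (14.5% of all genes) and 1, Psme4, as lower (11% of all genes), by limma. Every B-ALL library lay above every dHet proB library for 20 of the 47 members, and for 19.5% of all genes. The comparison shares its B-ALL libraries with the one above and is no independent repeat of it. One dHet proB library narrowed the gap: library 2 was the highest of the 3 for 42 of the 47 members, while it was highest for 33.4% of all genes. Without it 23 members passed as higher, while the share of all genes was 13.4%. Without library 1, 5 passed (7.35% of all genes), without library 3, 6 (13.4%), and without mouse 760, 6 (11.4%). Without mouse 686, 5 passed (7.37%), and without wt proB library 1 or library 1 of mouse 760, 8 (10.7% and 13.7%).

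**Figure D1:**
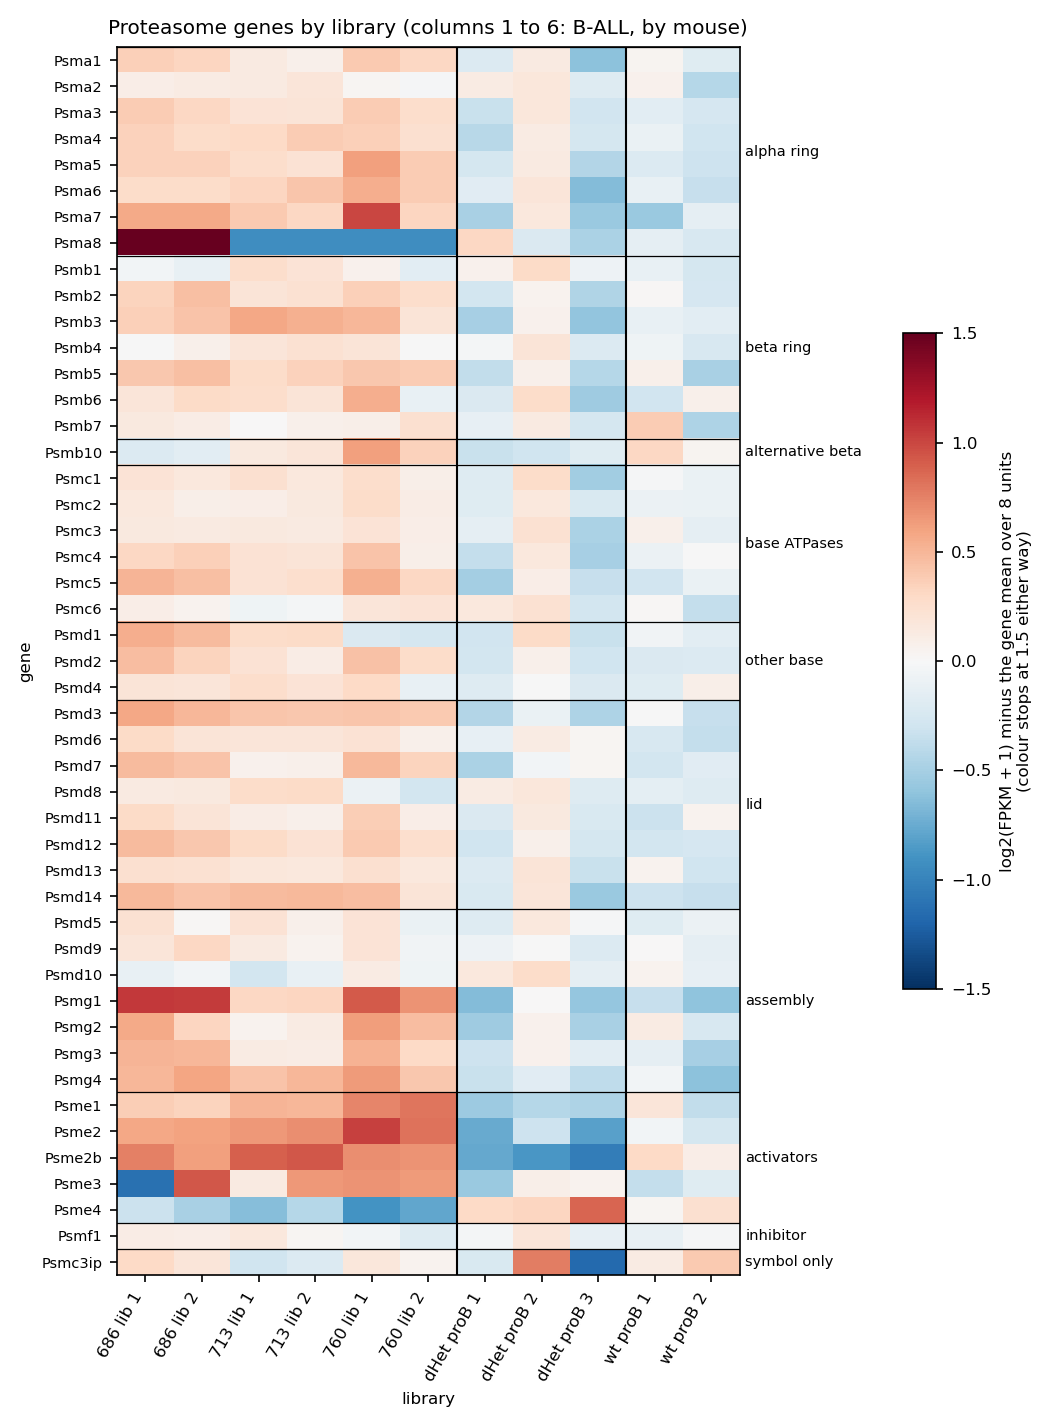
Level of each of the 47 tested members (rows, by role) in the 11 libraries (columns), as log2(FPKM + 1) minus the gene's mean over the 8 units (3 mice, 3 dHet proB and 2 wt proB libraries); red is above the mean and blue below. The B-ALL columns are mostly red, dHet proB library 2 is redder than the other two of its group, and Psma8, Psme3 and Psme4 break the pattern.

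The core rings lay mostly above 0 in both comparisons, with few genes past the test. Psma7, an alpha ring subunit, was the highest of all members, with FPKM of 1090 and 1091 in mouse 686, 968 and 916 in 713 and 1478 and 919 in mouse 760. It reached 527, 823 and 498 in the dHet proB libraries, and 499 and 668 in those of wt proB. All B-ALL libraries were above all proB libraries. The rise passed against dHet proB (log2 difference 0.82, SE 0.239, adjusted p = 0.04, limma) and missed the threshold against wt proB (0.88, SE 0.267, adjusted p = 0.0560). Among the 8 alpha genes the median was 0.51 against wt proB, where 0 passed in either direction (5 at an unadjusted p of 0.05, all higher), and 0.50 against dHet proB, where Psma7 alone passed. It lost that call in 13 of 27 alternative analyses, among them without mouse 686 or 760 and without dHet proB library 1 or 3, with adjusted p of up to 0.245. The ubiquitous alpha genes Psma1 to Psma6 averaged 188 to 444 FPKM in B-ALL, 134 to 303 in dHet proB and 131 to 293 in wt proB. Their estimates ran from 0.28 (Psma2) to 0.62 (Psma5) against wt proB and from 0.06 (Psma2) to 0.58 (Psma6) against dHet proB. Psma5 came closest to the threshold, with adjusted p = 0.0632 and 0.0527.

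The 7 beta ring genes had a median of 0.33 against wt proB with 0 passing (2 at an unadjusted p of 0.05, both higher), and of 0.38 against dHet proB with 1 passing. That gene was Psmb3, a noncatalytic ring subunit, at 573 and 603 FPKM in mouse 686, 669 and 650 in 713 and 636 and 512 in mouse 760. The dHet proB libraries held 318, 470 and 296, below all of these, and the difference was 0.77 (SE 0.199, adjusted p = 0.0270, limma). It was lost without any 1 mouse and without dHet proB library 1 or 3 (adjusted p of up to 0.101). Its promoter is one of those printed above with the interferon letters. Against wt proB, at 415 and 402 FPKM, it was 0.56 (adjusted p = 0.114). Psmb5, the subunit with the chymotrypsin-like site that bortezomib binds, had differences of 0.58 (adjusted p = 0.0986) and 0.62 (adjusted p = 0.0506). Psmb6, with the caspase-like site, and Psmb7, with the trypsin-like site, differed less: 0.33 and 0.16 against wt proB and 0.38 and 0.20 against dHet proB, none passing. Of the noncatalytic subunits, Psmb2 was at 487 ± 30.3 FPKM in B-ALL (SD, n = 3 mice), 340 ± 61.1 in dHet proB (n = 3) and 364 ± 49.3 in wt proB (n = 2). B-ALL differed by 0.53 from dHet proB (adjusted p = 0.0591, limma) and by 0.42 from wt proB (adjusted p = 0.165, limma). Psmb1 and Psmb4 had 0.22 and 0.26 against wt proB and -0.05 and 0.12 against dHet proB. Most of the 50-base words of Psmb3 (55.8%), Psmb5 (57.1%) and Psma5 (55.4%) occur in transcripts of other genes in GENCODE M21, mostly predicted genes, so these 3 values are less certain.

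Summed over the 14 genes of the constitutive rings, the core took 0.768 to 0.914% of all FPKM in the 6 B-ALL libraries. The share was 0.612, 0.769 and 0.586% in dHet proB and, for wt proB, 0.653 and 0.668%. B-ALL lay above wt proB in every library, while dHet proB library 2 reached the lower end of the B-ALL range.

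The base of the cap had smaller medians than the rings and the lid, a difference that was not tested. Its 6 ATPases, the ring that threads the substrate into the core, had medians of 0.25 against wt proB (0 of 6 passing, 1 at an unadjusted p of 0.05) and 0.30 against dHet proB (1 of 6). The gene that passed was Psmc5, at 255 and 245, 208 and 213, and 260 and 222 FPKM in mice 686, 713 and 760. It was at 125, 191 and 140 in dHet proB and at 147 and 167 in wt proB, and B-ALL did not overlap with either. The difference was 0.63 against dHet proB (SE 0.182, adjusted p = 0.0382, limma) and 0.57 against wt proB (adjusted p = 0.0872). The call was lost without mouse 686 or 760, dHet proB library 1 or 3 or either wt proB library (adjusted p of up to 0.130). Psmc4, the highest ATPase gene by FPKM (298 ± 13.6 in B-ALL, SD, n = 3 mice), did not pass either test (0.31 and 0.50). The other ATPase genes, Psmc1, Psmc2, Psmc3 and Psmc6, had 0.18 to 0.25 against wt proB and 0.04 to 0.33 against dHet proB. Of the 3 scaffold and receptor genes of the base among the members, Psmd2 passed against dHet proB (0.47, adjusted p = 0.0496). It held this in only 7 of 27 alternative analyses. Its FPKM was 205 and 189, 174 and 162, and 202 and 181 in mice 686, 713 and 760, above the 123, 157 and 122 of dHet proB and the 129 and 129 of wt proB, of which dHet proB library 2 came nearest. Psmd1 (0.29 and 0.30) and the ubiquitin receptor gene Psmd4 (0.22 and 0.31) passed neither.

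Of the 8 members in the lid, 4 were among the 8 that rose against wt proB, and 3 rose against dHet proB. Subunit genes with other symbols were not members. Of these, Shfm1 had 0.23 against wt proB and -0.25 against dHet proB, where every B-ALL library was lower. Adrm1 had 0.34 and 0.21, and both genes passed neither test. Psmd14, the deubiquitinase that cuts ubiquitin chains off the substrate, was at 269 and 258, 267 and 271, and 265 and 221 FPKM in mice 686, 713 and 760. It was at 164, 218 and 130 in dHet proB and at 155 and 152 in wt proB, so that no library of either proB group reached the B-ALL range. The differences were 0.75 (SE 0.215, adjusted p = 0.0481) and 0.62 (SE 0.192, adjusted p = 0.0480) against wt and dHet proB by limma. Both sit at the threshold and held in 13 and 9 of the 27 alternatives. Both were lost without any 1 mouse, library 1 of mouse 760, either wt proB library or dHet proB library 1, with adjusted p of up to 0.239 and 0.132. The first was also lost without library 2 of mouse 686, and the second without dHet proB library 3 or library 1 of mouse 686 or 713.

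Psmd3, a structural lid subunit, was lower in level, and its calls held in more of the alternatives. Its FPKM was 129 and 122, 115 and 114, and 115 and 113 in the mice, 63.1, 80.1 and 61.9 in dHet proB and, for wt proB, 85.2 and 67.6. The differences were 0.63 against wt proB (SE 0.173, adjusted p = 0.0414, limma) and 0.79 against dHet proB (SE 0.155, adjusted p = 0.0107, limma). The call against dHet proB held in all 27 alternative analyses (adjusted p of at most 0.0449). Against wt proB it held in 18 and was lost on leaving out any 1 mouse, either wt proB library or dHet proB library 1.

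Psmd12, a further structural lid subunit whose promoter is printed above, was at 203 and 193, 177 and 169, and 191 and 173 FPKM in the mice. Against the 118, 153 and 121 of dHet proB it rose by 0.50 (adjusted p = 0.0391), and against the 120 and 122 of wt proB by 0.60 (adjusted p = 0.0380), by limma. These calls held in 14 and 19 alternatives, and both were lost without mouse 686 or 760, dHet proB library 1 or either wt proB library. Psmd6 was at 143 to 166 FPKM in B-ALL, 124, 148 and 138 in dHet proB and, for wt proB, 114 and 106. It rose against wt proB (0.49, adjusted p = 0.0445, limma), held this in 15 of the 27 alternatives, and lost it without any 1 mouse, either wt proB library, dHet proB library 1 or library 1 of mouse 760. Against dHet proB, where libraries overlapped, it had 0.18 (adjusted p = 0.314). Psmd7, the inactive partner of Psmd14, had 0.54 (adjusted p = 0.101) and 0.47 (adjusted p = 0.0914). Psmd11 and Psmd13 had 0.33 and 0.32 against wt proB and 0.29 and 0.31 against dHet proB. Psmd8, the highest lid gene by mean FPKM over the 8 units, differed least (0.25 and 0.05). Over the 8 lid genes the medians were 0.51 and 0.39.

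**Figure D2:**
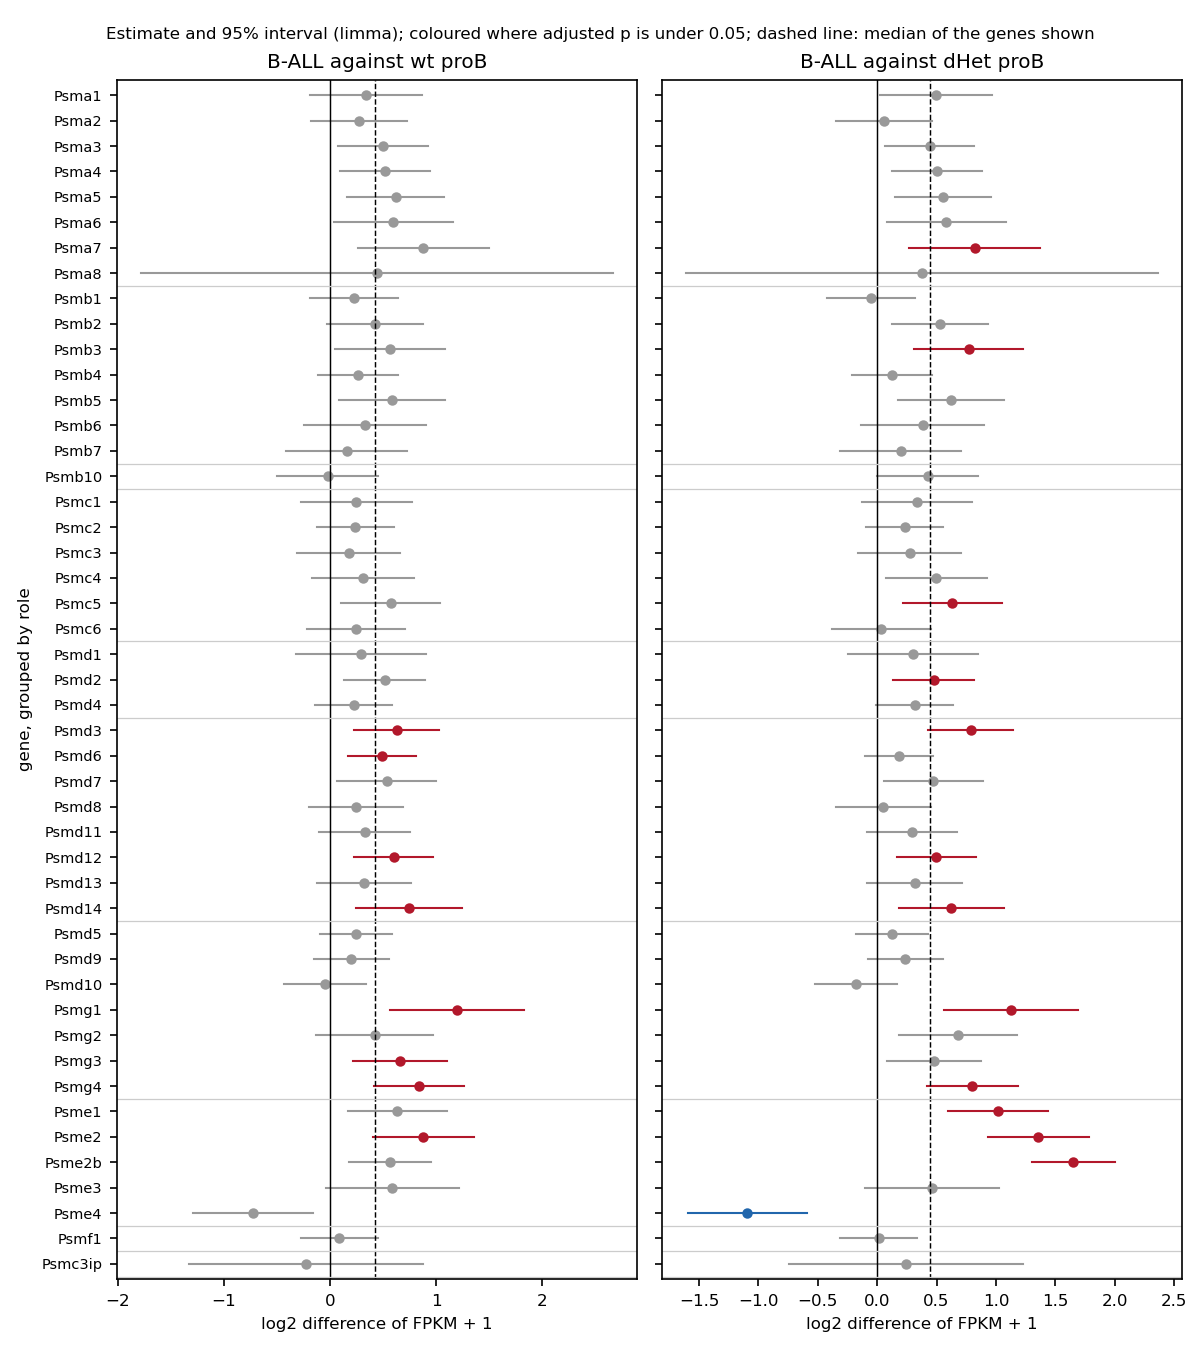
Log2 difference of FPKM + 1 between B-ALL and wt proB (left) and B-ALL and dHet proB (right) for each tested member, grouped by role, with its 95% interval from limma; red passed as higher and blue as lower, grey did not pass. Most points lie right of 0 near the dashed medians of 0.42 and 0.44, and the assembly and activator genes spread farthest from them.

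Assembly factors chaperone the rings and the base and are not part of the finished particle. Psmg1, part of a heterodimer that starts the alpha ring, had the largest estimate of all members against wt proB. Its FPKM was 98.3 and 97.3 in mouse 686, 57.9 and 58.3 in 713 and 88.6 and 74.6 in mouse 760, all above the 29.3, 46.7 and 30.8 of dHet proB and the 36.5 and 30.3 of wt proB. Mouse 713 had the lowest values of the 3 mice. The differences were 1.19 against wt proB (SE 0.273, adjusted p = 0.0222) and 1.13 against dHet proB (SE 0.244, adjusted p = 0.0149), by limma. They were lost without mouse 686 in both comparisons, without mouse 760 or either wt proB library in the first (adjusted p of up to 0.188), and without dHet proB library 1 in the second (up to 0.0584).

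Psmg4, part of the other alpha ring dimer, was even across the leukemias, and its promoter is one of those with the interferon letters. It was at 108 and 115, 103 and 108, and 120 and 102 FPKM in mice 686, 713 and 760. The dHet proB libraries held 60.6, 67.9 and 58.5, and wt proB 74.0 and 49.6, with no overlap. The rises were 0.84 against wt proB (SE 0.184, adjusted p = 0.0193) and 0.80 against dHet proB (SE 0.165, adjusted p = 0.0124), by limma. The second held in all 27 alternative analyses, and the first was lost without mouse 686 or without wt proB library 2 (adjusted p of up to 0.182).

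Psmg3, which pairs with Psmg4, was at 59.9 and 59.0, 45.4 and 45.1, and 60.1 and 51.7 FPKM in the mice, 33.4, 43.4 and 37.4 in dHet proB and, for wt proB, 37.7 and 29.3. It rose against wt proB at the edge of the threshold (0.66, adjusted p = 0.0494, held in 10 of 27 alternatives, adjusted p of up to 0.330) and had 0.48 against dHet proB (adjusted p = 0.0750). Psmg2, which pairs with Psmg1, was at 46.3 to 69.9 FPKM in B-ALL, a range that wt proB library 1 (48.8) and dHet proB library 2 (46.9) reached. It passed in neither comparison (0.42 and 0.68, the second with adjusted p = 0.0507). Of the base chaperones, Psmd10 (gankyrin) had estimates of -0.04 and -0.18, Psmd5 0.25 and 0.12 and Psmd9 0.20 and 0.23, none passing. In these groups, then, 3 of the 4 Psmg genes and 0 of the 3 base chaperones passed a test (0 of the 3 also at an unadjusted p of 0.05). Of all genes, 8.15% passed as higher against wt proB and 14.5% against dHet proB. The contrast between these sets was not tested.

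The activators had the largest median of the role groups of more than 1 gene against dHet proB (1.02), and their genes went in both directions. Psme2, which encodes PA28 beta, was at 430 and 437 FPKM in mouse 686, 452 and 465 in 713 and 586 and 507 in mouse 760. It was at 169, 231 and 162 in dHet proB and at 280 and 239 in wt proB, and the 3 groups did not overlap. B-ALL was higher by 1.36 than dHet proB (SE 0.184, adjusted p = 0.00303) and by 0.88 than wt proB (SE 0.206, adjusted p = 0.0242), by limma. Against dHet proB the call held in all 27 alternatives. Against wt proB it was lost without mouse 686, mouse 760 or either wt proB library, with adjusted p of up to 0.194.

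Psme1, which encodes the partner PA28 alpha and whose promoter stretch is printed above, was at 210 and 204, 231 and 230, and 270 and 283 FPKM in mice 686, 713 and 760. The dHet proB libraries were close together at 111, 121 and 117, and wt proB was spread at 184 and 125. The rise was 1.02 against dHet proB (SE 0.182, adjusted p = 0.00804, limma, held in all 27 alternatives). Against wt proB the difference of 0.64 missed the threshold (adjusted p = 0.0650), although no library overlapped.

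Psme2b is a near copy of Psme2, and 69.3% of its 50-base words and 59.3% of those of Psme2 also occur in other transcripts, chiefly each other's. Its values therefore cannot be fully separated from those of Psme2. It was at 24.7 to 31.0 FPKM in B-ALL, 8.89, 8.15 and 7.21 in dHet proB and, for wt proB, 19.6 and 17.0. The difference was 1.65 against dHet proB (SE 0.150, adjusted p = 0.000736, limma) and 0.56 against wt proB (adjusted p = 0.0531). It was also the only member that passed the test between dHet and wt proB.

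Psme4, which encodes PA200, a cap linked to acetylated histones and DNA repair, went the other way at a low level. Its FPKM was 3.98 and 3.44 in mouse 686, 3.002 and 3.62 in 713 and 2.35 and 2.62 in mouse 760. It was 6.67, 6.81 and 10.4 in dHet proB and, for wt proB, 5.35 and 6.35, above all 6 B-ALL libraries. B-ALL fell by 1.09 on the log2 scale against dHet proB (SE 0.219, adjusted p = 0.0113, limma, held in all 27 alternatives). Against wt proB the estimate was -0.73 (SE 0.245, adjusted p = 0.0747), and it passed without dHet proB library 3 (adjusted p = 0.0418).

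Psme3 could not be read as simply, since it was the only member that differed by 2-fold or more between the libraries of a mouse. Mouse 686 gave 63.1 and 264.5 FPKM, mouse 713 gave 152 and 216 and mouse 760 gave 221 and 216. The dHet proB libraries held 93.2, 146 and 143 and wt proB 107 and 122. In mouse 686, library 2 was at least 2-fold above library 1 for 416 of 11293 genes (3.68%), Psme3 the only 1 among the 47 members. With both libraries the differences were 0.59 against wt proB (adjusted p = 0.167) and 0.46 against dHet proB (adjusted p = 0.195). Without library 1 of mouse 686 they were 0.93 (adjusted p = 0.0355) and 0.80 (adjusted p = 0.0327), by limma. Without library 1 of both 686 and 713, a choice made after seeing these values, they were 1.01 (adjusted p = 0.0193) and 0.89 (adjusted p = 0.0177).

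**Figure D3:**
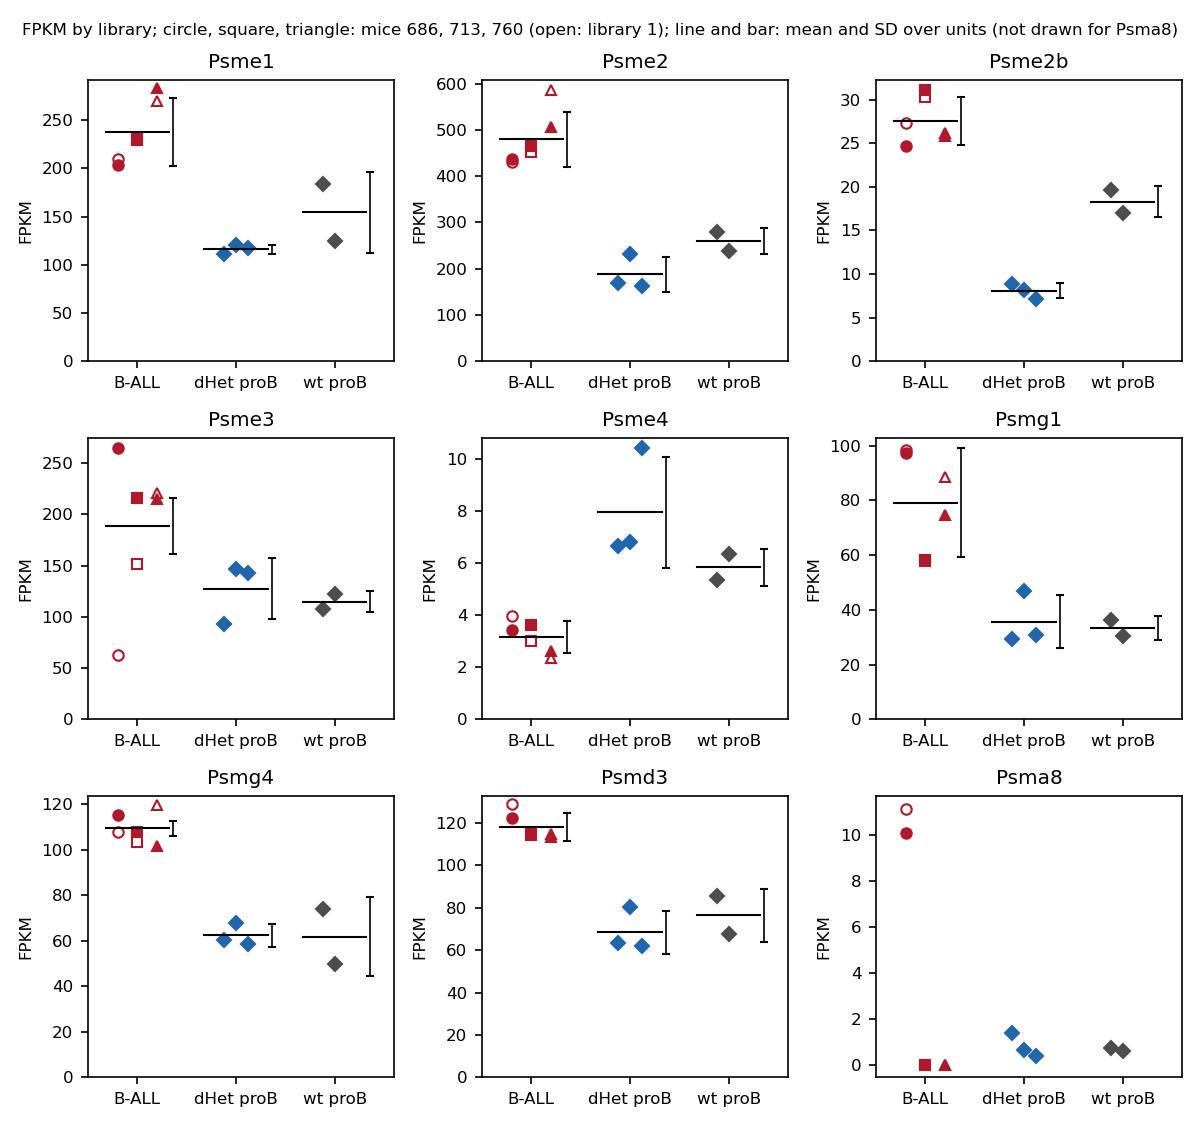
FPKM of 9 members in each library; for B-ALL, circles, squares and triangles are mice 686, 713 and 760, with library 1 open, and lines and bars give the mean and SD over 3 mice, 3 dHet proB and 2 wt proB libraries (not drawn for Psma8). Psme1, Psme2, Psme2b, Psmg1, Psmg4 and Psmd3 are higher in every B-ALL library, Psme4 is lower, Psme3 has a single low library at 63.1, and among the leukemias Psma8 is above 0 in mouse 686 only.

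Set against the core, PA28 also took different weight in the groups. The mean FPKM of Psme1 and Psme2 was 1.26 and 1.28 times the median of the ring genes in mouse 686, 1.41 and 1.43 times in 713 and 1.52 and 1.57 times in mouse 760. It was 0.676, 0.749 and 0.818 times in dHet proB and, for wt proB, 1.06 and 1.07 times. The 3 groups did not overlap in this ratio, and dHet proB library 2, high for the core, did not stand apart in it. The ratio compares levels per transcript length within a library and needs no scaling between libraries.

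**Figure D4:**
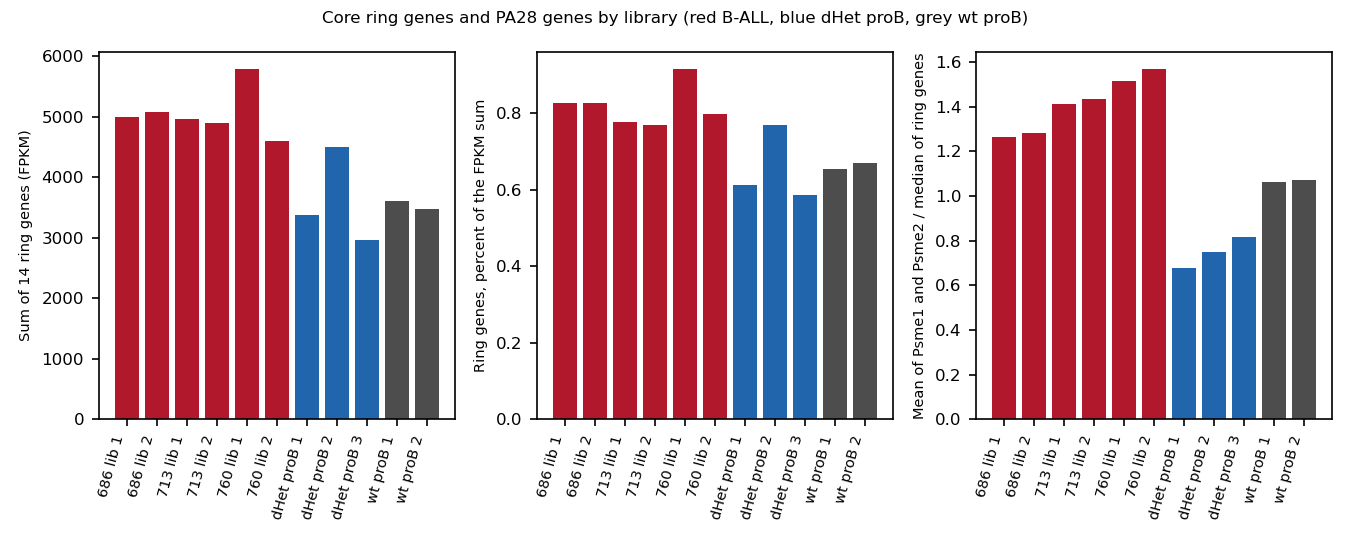
By library, the summed FPKM of the 14 constitutive ring genes (left), their percent of all FPKM (middle) and the mean of Psme1 and Psme2 divided by the median of the ring genes (right); red is B-ALL, blue dHet proB and grey wt proB. The core share of dHet proB library 2 (0.769%) reaches the B-ALL range, while the PA28 ratio stays at 0.676 to 0.818 in dHet proB against 1.26 to 1.57 in B-ALL.

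Psmb10 encodes the immunoproteasome form of the trypsin-like subunit and stands for that set among the members. It was at 93.1 and 95.6 FPKM in mouse 686, 119 and 122 in 713 and 164 and 137 in mouse 760, at 85.0, 87.1 and 94.1 in dHet proB, with 133 and 110 in the wt proB libraries. B-ALL overlapped with both, and the differences were -0.02 against wt proB (adjusted p = 0.957) and 0.43 against dHet proB (adjusted p = 0.123). Of the excluded partners, Psmb8 rose by 1.24 against dHet proB (adjusted p = 0.00711, limma) and Psmb9 had 0.74 (adjusted p = 0.0799). Against wt proB they had 0.65 and -0.14, neither passing. The inhibitor gene Psmf1 had close means, at 28.1 ± 2.45 FPKM in B-ALL (SD, n = 3 mice), 27.8 ± 3.16 in dHet proB (n = 3) and 26.2 ± 1.28 in wt proB (n = 2). Its 95% intervals for the log2 difference were -0.27 to 0.45 against wt proB and -0.31 to 0.34 against dHet proB. Psmc3ip passed neither test (-0.22 and 0.24).

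Between the nonleukemic groups the members lay on both sides of 0. Comparing dHet with wt proB, 27 estimates were above 0 and 20 below, with a median of 0.02 (-0.04 over all genes). By limma, 0 members passed as higher (2.18% of all genes; also 0 at an unadjusted p of 0.05) and 1 as lower (6.50% of all genes; 2 at an unadjusted p of 0.05). The 1 was Psme2b, which fell by 1.09 on the log2 scale (SE 0.168, adjusted p = 0.00581) and lost the call without either wt proB library (adjusted p of up to 0.124). Psme1 and Psme2 had -0.38 (adjusted p = 0.327) and -0.48 (adjusted p = 0.218). With 3 and 2 libraries the intervals were wide, for example -0.56 to 0.67 for Psma7.

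Among the leukemias, the mice were compared with an F test of limma against the spread between libraries of 1 mouse and of the proB groups, which is not the spread between animals. Of the 47 members 3 passed, against 22.3% of all 11293 genes tested. With the 6 B-ALL libraries alone, where the spread is that within a mouse only, 12 members passed, against 45.9% of all genes. Psma8, the testis form of an alpha ring subunit, was at 11.2 and 10.1 FPKM in mouse 686 and listed at 0 in all 4 libraries of mice 713 and 760 (adjusted p = 5.83e-06). It was at 1.36, 0.63 and 0.37 in dHet proB and, for wt proB, 0.73 and 0.61. Psmb10, with the values given above, was lowest in mouse 686 and highest in mouse 760 (adjusted p = 0.0209). The excluded genes Psmb8 and Psmb9 also passed (adjusted p = 0.0181 and 0.0359): Psmb8 was at 495 and 522 FPKM in mouse 686 against 735 to 870 in the other mice, and Psmb9 at 99.5 and 91.4 against 159 to 176. Psmd1, the larger scaffold of the base, ran the opposite way, with 111 and 106 in mouse 686, 92.2 and 92.9 in 713 and 65.0 and 63.0 in mouse 760 (adjusted p = 0.0461). The calls of Psmb10 and Psmd1 were lost in 5 and 11 of the 20 alternatives, among them without either library of mouse 686 or of mouse 713 (adjusted p of up to 0.108 and 0.2003). Leaving out library 1 of mouse 686, either library of mouse 713 or library 1 of mouse 760 left 1 member, Psma8. The share of all genes that passed also fell, to 16.6%, 12.0%, 11.6% and 14.5% in that order. Psmg1, Psmd8 and Psme1 came next and did not pass (adjusted p = 0.0780, 0.109 and 0.233).

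A list around the members held genes of the ubiquitin pathway, of proteasome transcription and of antigen processing. It also held subunit and assembly genes with other symbols, such as Adrm1, Shfm1 and Pomp, and the excluded Psmb8 and Psmb9. Its 43 tested genes had medians nearer 0. Against wt proB 5 were higher and 4 lower (median 0.20), against dHet proB 6 and 4 (median 0.21), and between dHet and wt proB 2 and 0. The counts in B-ALL are near the shares of all genes given above. Usp14, a deubiquitinase that binds the cap, was at 54.9 and 49.5, 36.4 and 35.6, and 41.5 and 42.7 FPKM in mice 686, 713 and 760, against 24.4 to 31.5 in dHet proB and, for wt proB, 23.9 and 22.2. It rose by 0.87 (adjusted p = 0.0203) and 0.57 (adjusted p = 0.0451) against wt and dHet proB. Uchl5, the other cap deubiquitinase, rose by 1.00 against dHet proB (adjusted p = 0.0268) and had 0.85 against wt proB (adjusted p = 0.0750).

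Of the transcription group, Nfe2l1 itself had 0.24 and 0.22 and passed neither test (adjusted p = 0.488 and 0.445). Ngly1, the enzyme that removes the sugar chains of the Nfe2l1 protein and so enables its activity, was at 93.3 to 108 FPKM in B-ALL, 47.3, 62.7 and 56.2 in dHet proB and, for wt proB, 35.5 and 35.6. Its differences of 1.46 against wt proB (adjusted p = 0.000900) and 0.84 against dHet proB (adjusted p = 0.00569) passed, as did 0.62 for dHet against wt proB (adjusted p = 0.0445), by limma. The related factor Nfe2l2 was lower in B-ALL than in dHet proB (-0.58, adjusted p = 0.0176) and differed little from wt proB (0.15, adjusted p = 0.503). Nfyb, of the same group, was lower in B-ALL than in wt proB (-1.10, adjusted p = 0.0159, limma). Against dHet proB it had -0.24 (adjusted p = 0.416, limma). Nfya and Nfyc passed neither test.

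The size of the general rise depends on the scaling. Rescaling each library to the same sum (TPM) moved the median of all genes against wt proB from -0.02 to -0.21, and against dHet proB from 0.04 to -0.12. The split of all passing genes went from 44.9% to 25.0% higher against wt proB and from 57.0% to 39.1% against dHet proB. The members' median then was 0.22 against wt proB and 0.26 against dHet proB, and 40 and 38 of the 47 were above 0. Relative to the median of all genes, the members stood at 0.44 as deposited, 0.43 after TPM and 0.20 after quantile normalization against wt proB. Against dHet proB these values were 0.41, 0.38 and 0.31. Under either scaling 3 of the 8 members called against wt proB kept their call, as did 8 of the 13 called against dHet proB.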

How the data were processed

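The submitters' processing notes name STAR 2.5.3a, bcl2fastq (2.20.0.422 and 0.3.1), Cuffnorm 2.2.1, Cuffdiff and Cufflinks 2.2.1, with the build mm9. Neither annotation nor scaling is given in the sources used here. The authors deposited FPKM per gene and library, with no counts, so counting error is unknown. FPKM were analysed as log2(FPKM + 1) with limma 3.58.1 in R 4.3.3 (mean-variance trend, 2 libraries of a mouse averaged, 8 units in 3 groups sharing 1 spread estimate). The 11110 genes that reached an FPKM of 1 in 2 or more units were tested, adjusted by Benjamini-Hochberg over all of them. Mice were compared over the 11 libraries in 5 groups with an F test (11293 genes). Between mice, same-numbered libraries deviated together in all 3 pairs (r of 0.13, 0.21 and 0.64), so that the replicate numbers may pair them there. With 2 libraries a mouse, each r tells only which numbering agrees better. The F test did not use the numbers, and the replicate block among the alternatives did. Both tests were tested on simulated data. A log2 difference on FPKM + 1 understates the change of low genes. Shared sequence was counted as 50-base words in GENCODE M21 transcripts. Alternatives changed the pseudocount, filter, scaling, trend, library choice, mouse term, replicate block and samples.

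The members, gene lists and marker lists were chosen with earlier results of these data known. Named were, per role, up to 2 members with the largest rise and fall among those that passed or else the largest difference, the highest and lowest member of each ring, base and lid, every assembly factor, activator and tissue form, and the 6 members with the smallest p between mice. Members given in a comparison for which this rule did not choose them were added after their values were seen. Psmd6 and Psmd12 in the comparisons with B-ALL are among these, while the rule chose Psmd6 for dHet against wt proB. The pathway genes given with values were also added after their values were seen.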

Additional observations from a re-analysis of the deposited data

How the results depend on the processing

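Limits: 2 or 3 units a group set the precision, depth is unknown, and leaving out 1 mouse or library changed many calls. None of the 8 calls against wt proB and 6 of the 13 against dHet proB (Psmd3, Psmg4, Psme1, Psme2, Psme2b and Psme4) held in all 27 alternatives; unless the text names a reason, the cause was not tested. Leaving out 1 mouse or library gave 0 to 15 members higher and 0 to 1 lower against wt proB, 5 to 23 higher against dHet proB, 0 to 1 lower between dHet and wt proB, and 1 to 4 between mice. Of all genes, the same settings gave 0.562% to 10.1% higher and 134 to 1359 genes lower against wt proB. They gave 7.35% to 15.1% higher against dHet proB, 63 to 923 genes lower between dHet and wt proB, and 11.6% to 30.5% between mice. Members higher against wt proB were 3 after TPM (4.62% of all genes), 3 after quantile normalization (8.09%), 4 without the trend (7.73%), 5 with library 2 of each mouse only (7.89%) and 15 with only the groups compared (9.68%). Against dHet proB they were 7 after TPM (10.0%), 7 after quantile normalization (11.9%), 7 without the filter (6.97%) and 7 with only the groups compared (10.1%). The members' medians were 0.22 (TPM) and 0.21 (quantile) against wt proB and 0.26 (TPM) and 0.26 (quantile) against dHet proB. Between mice 5 passed after quantile normalization (22.0% of all genes) and 12 with the 6 B-ALL libraries alone (45.9%). For all genes, quantile normalization put the higher share of the calls at 46.5% against dHet proB (57.0% as deposited) and 41.8% for dHet against wt proB (25.1%).

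The replicate number as a block left 10 members higher (10.2% of all genes) and 0 lower (1201 of 11110 genes) against wt proB. Against dHet proB it left 6 higher (13.3%) and 1 lower (925 genes). Between dHet and wt proB it left 0 higher (1.67%) and 1 lower (731 genes), and between mice 3 (27.6%). Library 3 of dHet proB, numbered so by its title while another label gives it the number of library 2, has no partner and adds nothing to the blocked differences. Across the groups compared the numbers did not pair the samples: deviations of same-numbered libraries correlated above 0.1 in 2 of 11 distinct pairs that include a proB group (r from -0.13 to 0.11).

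Signs turned under some alternative for 11 members against wt proB, 10 against dHet proB and 29 for dHet against wt proB, 0 of which had passed the test in that comparison. Values follow for those chosen by the naming rule. The others were Psmb1, Psmc1, Psmc3 and Psmd4 against wt proB (lowest -0.0659), Psma2, Psmb1, Psmb4, Psmc6 and Psmd6 against dHet proB (from -0.25 to 0.24), and 17 for dHet against wt proB. Against wt proB, Psma8 was -0.69 with a pseudocount of 0.1, Psmb7 -0.0431 (TPM) and -0.0484 (quantile), Psmf1 -0.11 (TPM), Psmb6 -0.0104 and Psmd8 -0.0084 (quantile), and Psmb10 0.0125 with library 1 of each mouse. Against dHet proB, Psma8 was -0.75 with a pseudocount of 0.1, Psmd8 -0.13 (TPM), -0.13 (quantile) and -0.0618 (block), Psmd5 -0.0562 (TPM) and -0.045 (quantile), Psmf1 -0.16 (TPM), -0.0632 (quantile), -0.0366 (library 2), -0.0522 (block) and -0.0097 (without library 1 of 686 and 713), and Psmc3ip -0.24 (block). For dHet against wt proB, Psma7 was -0.074 and Psmd9 0.0257 (quantile), and with the block Psmb6 was 0.14, Psmb7 0.052, Psmd1 0.10, Psmd9 0.0205 and Psmc3ip 0.014. With 1 mouse or library left out, ranges against dHet proB were -0.24 to 0.73 for Psmc3ip, -0.0618 to 0.18 for Psmd8 and -0.0522 to 0.0997 for Psmf1. Against wt proB they were -0.18 to 0.15 for Psmb10, -0.27 to 0.58 for Psmb7 and -0.13 to 0.0409 for Psmd10. For dHet against wt proB they were -0.0291 to 0.46 for Psma2, -0.17 to 0.27 for Psma7, -0.27 to 0.14 for Psmb6, -0.46 to 0.39 for Psmb7, -0.95 to 0.014 for Psmc3ip, -0.20 to 0.10 for Psmd1, -0.32 to 0.0068 for Psmd3, -0.23 to 0.0464 for Psmd4, -0.11 to 0.0359 for Psmd9, -0.0112 to 0.14 for Psmf1, -0.14 to 0.19 for Psmg1 and -0.25 to 0.32 for Psmg4.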
